A study of Mus musculus with 4 samples.

Results

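The nuclear receptor gene Rora, the aryl hydrocarbon receptor gene Ahr, the transcription factor gene Maf and the paired membrane protein genes Tmem176a and Tmem176b were followed in mouse helper T cells with and without Bfar. These 5 genes were taken by their symbols from the 4 deposited tables, which together list 17478 genes, and all 5 were listed in every library and passed the filter on low counts. The cells were naive CD4+ T cells (CD44lo CD62Lhi) sorted from spleen and lymph nodes of C57BL/6 mice aged 6 to 8 weeks, activated with anti-CD3 and anti-CD28 and held for 3 days in conditions that drive Th9 cells, helper T cells that secrete interleukin 9. One group was wild type and the other was labelled BFAR-/-, which the growth protocol describes as a deletion of Bfar conditional on T cells. Bfar codes for a ubiquitin ligase with a RING domain that sits in the membrane of the endoplasmic reticulum. Each group had 2 RNA-seq libraries. Whether the libraries of a group come from different mice is not stated in the labels, and the p-values therefore describe how far these libraries vary, which may be technical variation alone. The Cre driver, the deleted exons and the agents of the Th9 condition were not given in the sources used here.

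Rora belongs to the ROR family of nuclear receptors, which bind DNA at response elements and, in CD4+ T cells, take part in the Th17 program that yields interleukin 17. Ahr is a ligand-activated factor that moves to the nucleus, pairs with ARNT and turns on detoxifying enzymes such as CYP1A1, and in helper T cells it is known for its part in interleukin 22 production. Maf encodes c-Maf, a basic leucine zipper factor known in helper T cells for driving Il10 and Il4. TMEM176A and TMEM176B are membrane proteins with several membrane-spanning segments, related to the MS4A family, and their genes are neighbours that are usually transcribed together in Th17 cells, innate lymphoid cells and dendritic cells.

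The sequences that join the Tmem176 genes are their start regions, which are shown because both genes moved together. In the RefSeq annotation of GRCm38 (build GRCm38.p6) Tmem176a lies on the plus strand of chromosome 6 from 48841483 to 48845364, and Tmem176b on the minus strand from 48833811 to 48845948, so that the full RefSeq span of Tmem176b contains Tmem176a. The RefSeq promoter table holds windows from 250 bases before to 50 bases after each annotated start. It holds 2 windows for Tmem176a and 3 for Tmem176b. Among these windows the closest pair of starts, at 48841374 for Tmem176b and 48841483 for Tmem176a, point away from each other and lie 109 bases apart, so their windows share 208 bases from 48841325 to 48841532. Both windows are written 5′ to 3′ on the strand of their own gene, chr6:48841233-48841532 on the plus strand and chr6:48841325-48841624 on the minus strand, and the capitals mark the 208 shared bases, which are each other's reverse complement.
Tmem176a: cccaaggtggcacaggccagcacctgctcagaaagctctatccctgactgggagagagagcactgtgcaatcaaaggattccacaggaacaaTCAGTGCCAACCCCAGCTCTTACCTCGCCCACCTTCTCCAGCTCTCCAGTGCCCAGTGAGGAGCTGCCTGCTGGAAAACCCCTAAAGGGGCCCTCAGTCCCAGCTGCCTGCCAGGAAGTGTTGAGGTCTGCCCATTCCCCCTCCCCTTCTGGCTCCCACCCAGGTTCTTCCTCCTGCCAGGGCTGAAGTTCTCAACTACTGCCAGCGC
Tmem176b: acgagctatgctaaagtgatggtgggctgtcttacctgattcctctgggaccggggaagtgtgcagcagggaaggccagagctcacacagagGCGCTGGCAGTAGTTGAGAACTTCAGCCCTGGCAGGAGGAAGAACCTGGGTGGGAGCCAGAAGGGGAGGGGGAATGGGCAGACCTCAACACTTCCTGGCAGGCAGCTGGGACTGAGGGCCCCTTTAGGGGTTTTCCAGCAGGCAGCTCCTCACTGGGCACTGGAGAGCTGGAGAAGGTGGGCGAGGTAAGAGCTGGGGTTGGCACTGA
G and C made up 59.7% of the Tmem176a window and 60.3% of the Tmem176b window. Of 13444 listed genes with such a window, 668 (4.97%) had a start that diverged from that of another listed gene at 109 bases or less, so the arrangement is uncommon among these genes but not particular to the pair.

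**Figure D1:**
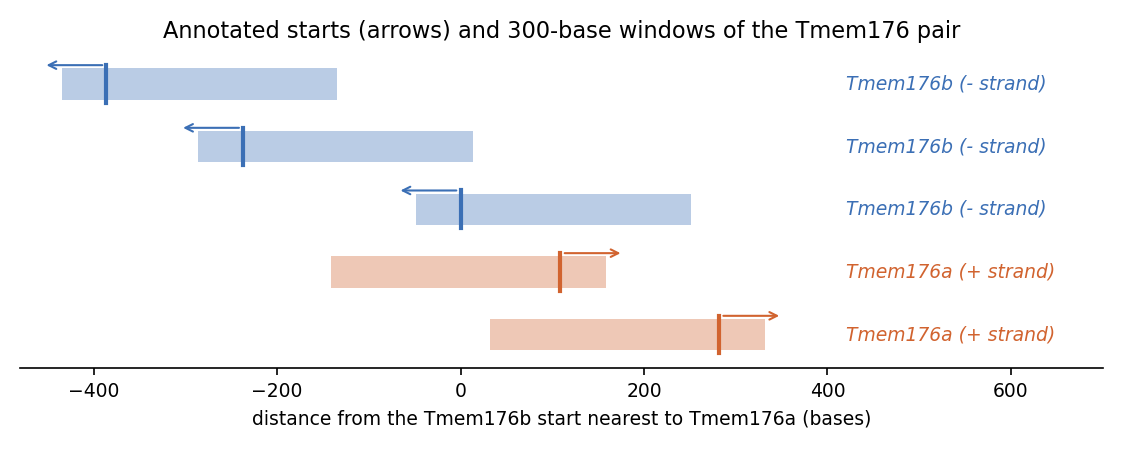
The bars are the 300-base windows around the annotated starts of Tmem176a (orange, plus strand) and Tmem176b (blue, minus strand), placed by their distance in bases from the Tmem176b start nearest to Tmem176a among these windows, and the arrows show the direction of transcription from each start. The first Tmem176a start lies 109 bases from that Tmem176b start, and the second lies 282 bases from it.

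The letters of 3 motifs were searched on both strands of these windows, and no motif is part of another. AGGTCA, the half-site that ROR receptors bind, was in none of the 5 windows of the pair and is in 16.3% of all 32851 windows of the table. GCGTG, the core of the AHR response element, was in none of the 5 and is in 32.4% of all windows. TGCTGA, a MAF half-site, was in none of the 5 and is in 19.5% of all windows. The 5 windows overlap in turn between 48840939 and 48841705, so they are not 5 independent searches. The lack of matches was not tested against the shares of all windows. These letters are absent from these windows only. Rora has 1 window, on chromosome 9, which holds GCGTG a single time, on the reverse strand, and neither of the other motifs. The table held no window under the gene identifiers of Ahr and Maf.

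The label of each knockout library was checked first on Bfar itself. Bfar stood at 36.4 and 32.9 CPM (counts scaled to library size, with TMM factors that balance the libraries) in wild type and at 8.45 and 7.79 CPM in the knockout, so the groups did not overlap. Across the transcriptome 3398 of 12677 tested genes (26.8%) passed edgeR's quasi-likelihood test at an adjusted p of 0.05 (Benjamini-Hochberg), 13.6% higher and 13.2% lower in the knockout, with a median log2 fold change of -0.00235 over all tested genes. The count fell to 2139 without wild type replicate 1, 1894 without knockout replicate 1 and 1441 without knockout replicate 2, and that of lower genes from 1670 to 1112 without wild type replicate 2. Total expected counts lay between 19058009 and 19782923 per library, and a level of 0.152 to 0.157 CPM stands for 3 counts. The 2 groups did not overlap in CPM for 63.5% of tested genes. In these bulk samples fewer cells of a type and less RNA per cell cannot be told apart.

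Of the 5 genes, Rora rose in the knockout, Tmem176a and Tmem176b fell, and Ahr and Maf did not pass the test. That is 3 of 5 genes called, where 26.8% of all tested genes were called. These genes and the lists below were chosen with earlier results of these data known, so the shares called cannot serve as a test. The groups did not overlap for any of the 5, also for Ahr and Maf, which 63.5% of all tested genes share.

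Tmem176b had 61.8 and 62.3 CPM in wild type and 30.5 and 32.3 CPM in the knockout libraries. Both knockout libraries were below both wild-type libraries by a wide margin, with the higher knockout level at 0.523 of the lower wild-type level. Expressed as the log2 ratio of knockout to wild type this was -0.98 ± 0.06 (SE, 2 libraries per group; edgeR adjusted p = 1.15e-08), with a 95% interval from -1.10 to -0.86. Among the 9893 genes averaging 5 CPM or more, 19 had a log2 fold change this low or lower, Tmem176b included.

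Tmem176a had 50.2 and 52.0 CPM in wild type and 27.1 and 27.0 CPM in the knockout libraries. Again the groups were far apart, and the knockout libraries differed from each other by less than the wild-type libraries did. The log2 fold change was -0.92 ± 0.06 (SE, 2 libraries per group; edgeR adjusted p = 4.72e-08), with a 95% interval from -1.05 to -0.79 that overlaps that of Tmem176b. Among the same 9893 genes, 24 had a log2 fold change this low or lower, Tmem176a included. In FPKM, the level per length of transcript, the ratio of Tmem176a to Tmem176b was 0.899 and 0.933 in wild type and 0.986 and 0.950 in the knockout libraries. In expected counts the ratio was 0.812 and 0.835 in wild type and 0.888 and 0.836 in the knockout, so the second knockout library lay next to the second wild-type library. The FPKM of that knockout library rests on a longer length estimate of Tmem176b, and with 2 libraries against 2 a two-sided exact permutation test cannot go below p = 0.333.

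Because the pair is transcribed in opposite directions and the strand setting of the authors' counting is not given in the sources used here, reads from shared bases cannot be assigned by strand. The exons of the RefSeq transcripts that the tables count were not used here. GENCODE M21 annotates 81 exonic bases that both genes cover, which is 2.13% of the exonic bases of Tmem176a and 3.42% of those of Tmem176b. On sequence, 0.83% of the 31-mers of Tmem176a and 1.23% of those of Tmem176b occur in the other gene, on the opposite strand. The expected counts of both genes were whole numbers in all 4 libraries.

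Rora had 96.1 and 100.3 CPM in wild type and 130.4 and 142.4 CPM in the knockout libraries. Both knockout libraries were above both wild-type libraries, and the lower of them was 1.30 times the higher wild-type level. The log2 fold change was 0.47 ± 0.05 (SE, 2 libraries per group; edgeR adjusted p = 5.09e-06), with a 95% interval from 0.37 to 0.58, a 1.39-fold rise. The rise was smaller than the falls of the pair, and 329 of the 9893 genes averaging 5 CPM or more had a log2 fold change this high or higher, Rora included. With log2(FPKM + 0.1) over all listed genes its log2 difference was 0.46 and its limma adjusted p 0.0606.

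Ahr had 110.8 and 112.8 CPM in wild type and 113.4 and 120.0 CPM in the knockout libraries. The lowest knockout value was 1.01 times the highest wild-type value, so the groups only just failed to overlap. The log2 fold change was 0.06 ± 0.04 (SE, 2 libraries per group; edgeR adjusted p = 0.331), and the 95% interval ran from -0.03 to 0.15.

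Maf had 188.0 and 189.1 CPM in wild type and 179.7 and 178.3 CPM in the knockout libraries. The knockout values were lower by a small amount, and the libraries within each genotype lay close together. The log2 fold change was -0.07 ± 0.04 (SE, 2 libraries per group; edgeR adjusted p = 0.166), and the 95% interval ran from -0.16 to 0.01.

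**Figure D2:**
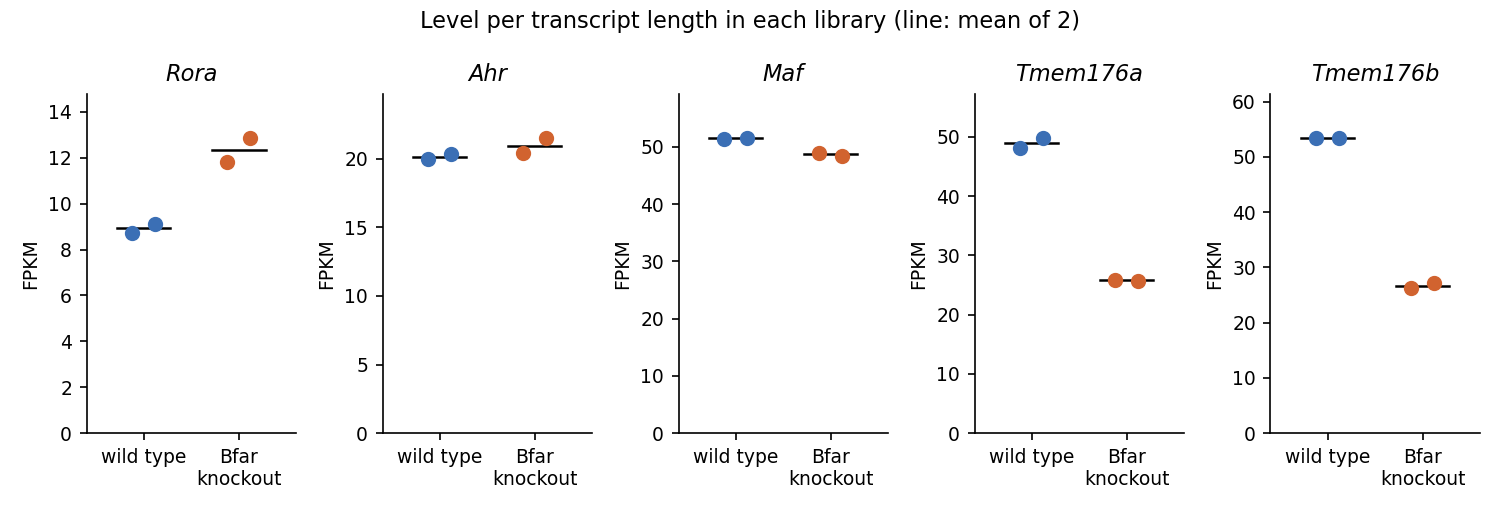
Each panel plots the deposited FPKM of 1 gene in the 2 wild-type (blue) and 2 Bfar knockout (orange) libraries, with a line at the mean of each group and an axis from 0. Tmem176a and Tmem176b lie near 50 FPKM in the wild type and between 25.8 and 27.1 in the knockout, Rora is higher in both knockout libraries, and Ahr and Maf differ little.

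Per length of transcript, the order of the levels changed at its top. In both wild-type libraries Tmem176b was highest in FPKM (mean 53.5 ± 0.03, SD, n = 2), ahead of Maf (51.5 ± 0.17) and Tmem176a (49.0 ± 1.26), with Ahr (20.2 ± 0.24) and Rora (8.92 ± 0.27) below. In both knockout libraries Maf came first (48.7 ± 0.35), followed by Tmem176b (26.7 ± 0.63), Tmem176a (25.8 ± 0.07), Ahr (21.0 ± 0.81) and Rora (12.3 ± 0.75). No pair of neighbours in either order overlapped in its library values, although 2 libraries a group bound this poorly. Among the genes listed in each library, the Tmem176 genes ranked between 1519 and 1732 from the top in the wild type and between 3090 and 3254 in the knockout, while Rora moved from 6735 and 6613 to 5807 and 5517. Maf stayed between 1581 and 1664.

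The lengths that the tables used bear on these levels. The isoform-weighted length of Rora, estimated over 3 RefSeq transcripts, was between 10869.0 and 10869.5 bases in every library, and that of Ahr was 5494 bases. That of Tmem176a was 1064 bases in 3 libraries and 1062 in the second wild-type library. Tmem176b, which has 7 RefSeq transcripts in the tables, had 1174 and 1183 bases in the wild type and 1178 and 1205 in the knockout, with the groups overlapping. Maf (chromosome 8, 115703253 to 115706894) was counted over a single transcript of 3642 bases, whereas GENCODE M21 annotates 8241 exonic bases, so reads from the remainder are not in its count. For Rora (chromosome 9, 68653404 to 69388246, plus strand) and Ahr (chromosome 12, 35497979 to 35534989, minus strand), 0.7% and 1.61% of the 31-mers occur in another gene on either strand. For Maf the share is 5.38%, most of it in the antisense transcript Gm15655, which holds 4.74%.

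**Figure D3:**
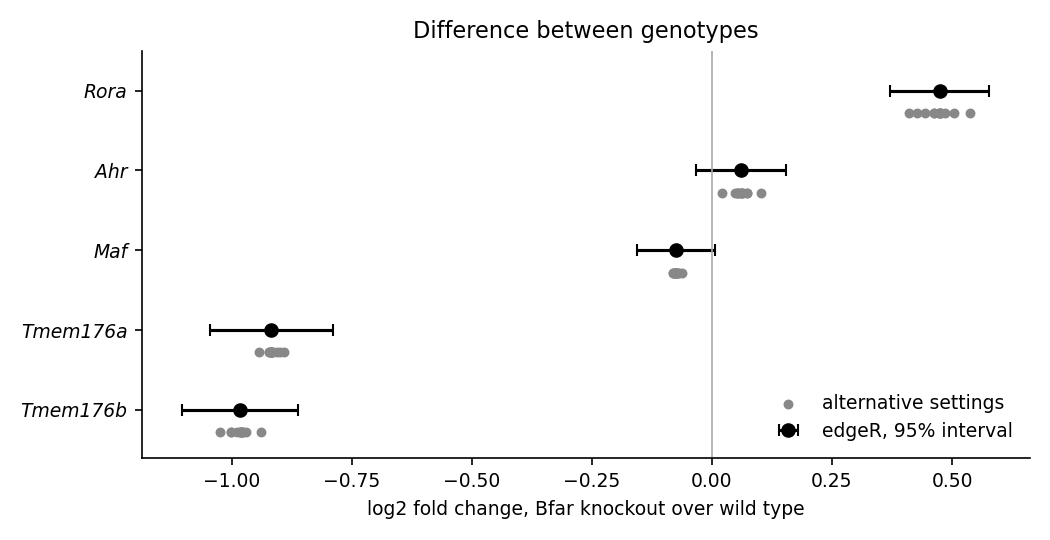
Black points are the log2 fold changes, Bfar knockout over wild type, from edgeR with 95% intervals, and grey points below them are the values under 13 alternative settings. The intervals of Tmem176a, Tmem176b and Rora do not reach 0, those of Ahr and Maf include it, and no alternative changes the direction of any of the 5 genes.

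The pair was then set beside its neighbours on chromosome 6, the 5 nearest listed genes on each side. On the side of lower coordinates lie GIMAP genes, which encode GTPases of lymphocytes. Gimap6, whose lowest coordinate lies 139.9 kb from that of Tmem176a, rose by 0.26 ± 0.06 in log2 terms (edgeR adjusted p = 0.00479). Gimap7 and Gimap3 rose by 0.38 (adjusted p = 0.0349) and 0.12 (adjusted p = 0.0347) in edgeR, and Gimap1 and Gimap5 had log2 fold changes of 0.04 and 0.07 and did not pass. On the other side Aoc1, an amine oxidase gene, was the closest, 53.8 kb away by the same measure. It had 0.555 and 0.860 CPM in the wild type and 0.363 and 0.105 CPM in the knockout, near the counting limit. Its log2 fold change was -1.56 ± 0.57 (edgeR adjusted p = 0.0559, and 0.0426 with the replicate number as a block). Malsu1, Igf2bp3 and Tra2a had log2 fold changes of -0.09, -0.17 and -0.07 with edgeR adjusted p of 0.617, 0.097 and 0.28, and Gpnmb was too low to test. Of 9 tested neighbours edgeR called 3 higher and none lower, where 26.8% of all tested genes were called and 13.6% were called higher. At an unadjusted p under 0.05 the count was 3 higher and 2 lower, and DESeq2 called 0. In edgeR each GIMAP call was lost without wild type replicate 1 (0.0656 for Gimap6, 0.139 for Gimap7 and 0.117 for Gimap3) and without knockout replicate 2 (0.115, 0.0518 and 0.0728), and those of Gimap7 and Gimap3 also without wild type replicate 2 (0.106 and 0.157) or knockout replicate 1 (0.223 and 0.2).

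**Figure D4:**
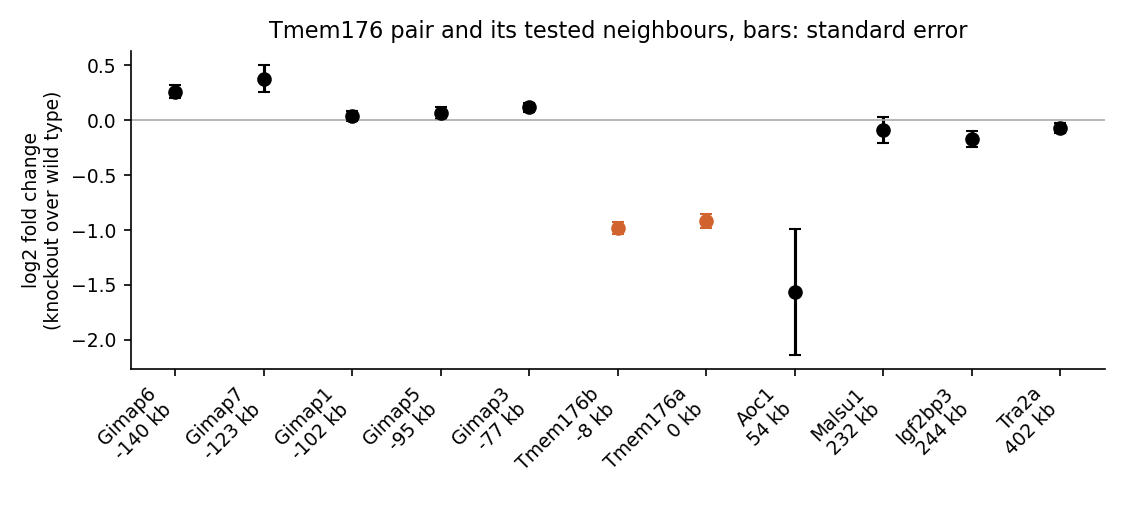
Points are log2 fold changes, Bfar knockout over wild type, with standard errors. They stand for the Tmem176 pair (orange) and its tested neighbours on chromosome 6 (black), in order of position. Labels give the distance in kilobases of each gene's lowest RefSeq coordinate from that of Tmem176a. For genes on the minus strand this coordinate is not the start of transcription. The pair lies near -1, the GIMAP genes lie at or above 0, and Aoc1, with few reads, lies below the pair with a wide error.

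The genes whose CPM profiles over the 4 libraries were closest to each of the 5 were found by the Euclidean distance between centred log2 CPM values among the 9892 other genes averaging 5 CPM or more. With 4 libraries, this likeness holds little beyond the genotype difference and the order within each group. For Tmem176a the closest were Pdpn (distance 0.0453), which encodes the mucin-like glycoprotein podoplanin, Dynlt1c (0.0793) and March6 (0.0867). Pdpn had 41.1 and 43.6 CPM in the wild type and 21.8 and 21.9 CPM in the knockout. For Tmem176b they were Pdpn (0.0808), Alpk2 (0.0844) and Tmem176a itself (0.0939), and Tmem176b ranked 4 among the genes closest to Tmem176a. For Rora they were Mov10 (0.0254), an RNA helicase gene, Satb1 (0.0291), a chromatin organiser gene, and Ufsp2 (0.037). For Ahr they were Ece1, Evl and Fryl, and for Maf 0610007P14Rik, Gfm1 and Hspa4, all at 0.00935 or less. Neither edgeR nor DESeq2 called any of these, which their choice by likeness to genes without a call had all but fixed.

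Other genes of the Th17 program split. Of 24 genes in the list, 23 were tested and 11 called, 7 higher and 4 lower (47.8%, against 26.8% of all tested genes), with a median log2 fold change of 0.08. The 11 calls were 7 without knockout replicate 1 and 6 without knockout replicate 2. Stat3, the signal transducer of interleukin 6 and interleukin 23, had 643.5 and 663.9 CPM in the wild type and 848.9 and 909.6 CPM in the knockout. The hypoxia-inducible factor gene Hif1a rose from 478.3 and 480.4 to 612.3 and 632.7 CPM (log2 0.38 ± 0.04, edgeR adjusted p = 1.97e-06). Tgfb3, a TGF-beta ligand gene, went from 6.26 and 7.79 to 19.1 and 20.4 CPM. Il6st, the shared receptor chain gp130, rose by 0.26 ± 0.05 in log2 terms (edgeR adjusted p = 0.00125, but 0.0628 without knockout replicate 2). Ccl20, the ligand of the chemokine receptor CCR6, fell from 12.9 and 14.2 to 7.41 and 6.69 CPM. Ikzf3, the gene of the Ikaros-family factor Aiolos, fell by 0.23 ± 0.05 (edgeR adjusted p = 0.00219, and 0.0609 without knockout replicate 1).

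The interleukin 17 genes, the products of this program, were expressed but did not differ by the test. Il17f had 166.0 and 167.7 CPM in the wild type and 146.5 and 175.5 CPM in the knockout, and Il17a had 27.7 and 25.1 against 22.4 and 29.4 CPM. For both, the knockout libraries lay on either side of the wild-type libraries. Their log2 fold changes were -0.05 (95% interval -0.18 to 0.08, edgeR adjusted p = 0.577) and -0.03 (-0.25 to 0.19, adjusted p = 0.879). Without knockout replicate 2, Il17f had -0.19 and an edgeR adjusted p of 0.0442. Il22 was low, with 1.11 and 1.06 CPM in the wild type and 2.20 and 3.69 CPM in the knockout. Its log2 fold change was 1.42 ± 0.29 (SE, 2 libraries per group; edgeR adjusted p = 0.0023, and 0.0713 without knockout replicate 2). Il21 differed by 0.42 ± 0.19 in log2 terms (edgeR adjusted p = 0.119), and Il23r, with 1 to 6 counts a library, was too low to test.

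ROR receptors share their DNA elements with the REV-ERB repressors and feed into the circadian clock. Of 19 genes of this list, 17 were tested, of which 4 rose and 2 fell (35.3% called, against 26.8% of all tested genes), with a median log2 fold change of 0.03. Per1, a clock repressor gene, rose from 123.9 and 122.2 to 177.6 and 174.2 CPM (log2 0.52 ± 0.04, edgeR adjusted p = 3.05e-07), a rise about as large as that of Rora. Per3 rose by 0.64 ± 0.12 (edgeR adjusted p = 0.00085) and Nfil3, a basic leucine zipper repressor gene, by 0.23 ± 0.04 (edgeR adjusted p = 0.00051). Bhlhe40, a helix-loop-helix repressor gene, had 728.5 and 756.7 CPM in the wild type and 965.4 and 959.1 CPM in the knockout. Npas2, a partner of ARNTL, fell by 0.15 in log2 terms (edgeR adjusted p = 0.0403), and it lost the call without any 1 library, with values between 0.0505 and 0.293. Nr1d1 and Nr1d2, the REV-ERB genes, had log2 fold changes of 0.00 and -0.05 (edgeR adjusted p = 0.987 and 0.736), and Arntl had -0.11 (adjusted p = 0.349). Rorb, with at most 0.99 counts, and Bhlhe41, with at most 4, were too low to test.

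Around Ahr, partners and targets went both ways. Of 6 partner and chaperone genes 5 were tested, with 1 higher and 1 lower (40%, where 26.8% of all tested genes were called) and a median log2 fold change of 0.04. Arnt, the dimer partner of AHR, rose from 83.2 and 80.9 to 94.9 and 94.0 CPM (log2 0.20 ± 0.04, edgeR adjusted p = 0.00332). Ptges3, which encodes the HSP90 co-chaperone p23, fell from 190.9 and 190.8 to 171.5 and 171.2 CPM (log2 -0.16 ± 0.04, edgeR adjusted p = 0.00716, and 0.0582 and 0.07 without knockout replicate 1 and 2). Of 8 known target genes 5 were tested, again with 1 higher and 1 lower (40%, on the same background) and a median of -0.19. Cyp1b1, a monooxygenase gene, fell from 5.55 and 5.67 to 3.21 and 3.11 CPM (log2 -0.83 ± 0.16, edgeR adjusted p = 0.00138). Tiparp, an ADP-ribosyltransferase gene that restrains AHR, rose from 26.4 and 26.1 to 32.4 and 35.2 CPM (log2 0.36 ± 0.07, edgeR adjusted p = 0.00141, and 0.0554 without knockout replicate 2). Cyp1a1 had 9.34 and 8.35 CPM in the wild type and 8.09 and 7.37 CPM in the knockout (edgeR adjusted p = 0.264). Ahrr, the AHR repressor gene, had 5.45 and 5.82 against 4.87 and 4.63 CPM (edgeR adjusted p = 0.239). Both were lower in every knockout library without passing the test, and the groups did not overlap for 63.5% of all tested genes. Arnt2, Cyp1a2, Ugt1a6a and Aldh3a1 were too low to test.

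Of 12 other MAF and CNC genes, which encode the basic leucine zipper partners and relatives of c-Maf, 8 were tested and 1 was called (12.5%, below the 26.8% of all tested genes), with a median log2 fold change of 0.02. That gene was Bach2, a repressor of effector programs in T cells, which rose from 351.1 and 359.2 to 410.4 and 427.3 CPM (log2 0.24 ± 0.04, edgeR adjusted p = 0.000253). The list had 2 calls without wild type replicate 2. The small MAF genes Maff, Mafg and Mafk had log2 fold changes of 0.17, 0.01 and -0.18 with edgeR adjusted p of 0.112, 0.958 and 0.06. Mafa, Nrl and Nfe2l3 were among those too low to test. Of 7 genes tied to c-Maf in helper T cells, all tested, 1 rose and 1 fell (28.6%), with a median of 0.11. Icos, a costimulatory receptor gene, rose from 266.0 and 266.4 to 306.0 and 320.4 CPM (log2 0.23 ± 0.04, edgeR adjusted p = 0.000354). Il2 fell from 27.5 and 23.3 to 17.0 and 12.7 CPM (log2 -0.77 ± 0.12, edgeR adjusted p = 0.000196). Il10 differed by 0.11 ± 0.11 in log2 terms (edgeR adjusted p = 0.484), and Il4 had 0.466 to 0.948 CPM over the 4 libraries.

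The MS4A genes are relatives of the Tmem176 pair, and those called went the other way. Of 17 genes, 7 had no listed value and 6 were too low to test. Of the 4 tested, 3 rose (75%, against 13.6% of all tested genes that rose) and none fell. At an unadjusted p under 0.05 in edgeR 4 were higher and 0 lower, and DESeq2 called 1 higher and 0 lower. Ms4a6b rose from 8.88 and 10.6 to 13.3 and 14.9 CPM (log2 0.54 ± 0.11, edgeR adjusted p = 0.00268), and Ms4a4b from 10.4 and 10.6 to 13.4 and 13.98 CPM (log2 0.37 ± 0.10, edgeR adjusted p = 0.0114). Ms4a6c rose by 0.52 ± 0.17 (edgeR adjusted p = 0.0299). Without knockout replicate 2 the edgeR adjusted p was 0.0836, 0.0949 and 0.221 for these genes. Ms4a4b also missed the threshold without wild type replicate 1 (0.0621) or knockout replicate 1 (0.0521), and Ms4a6c without wild type replicate 1 (0.165) or 2 (0.0688). Their fractional expected counts show that reads were divided among similar sequences. Ms4a4c, the fourth, had 0.215 to 0.676 CPM.

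**Figure D5:**
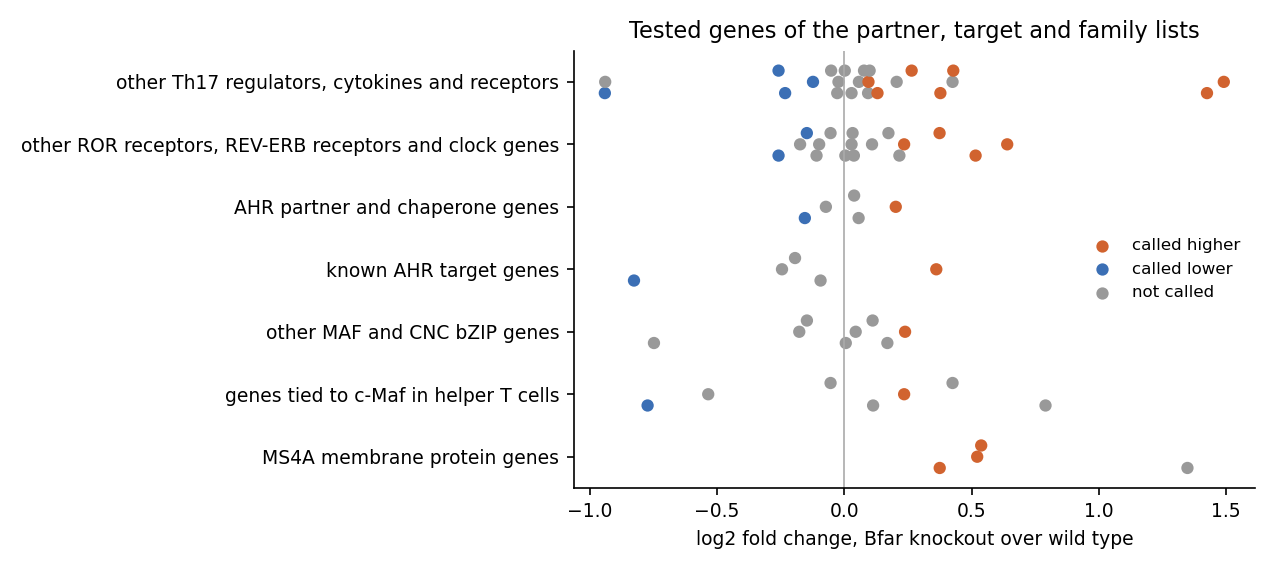
Each point is a tested gene of a list named on the vertical axis, placed by its log2 fold change, Bfar knockout over wild type, and coloured by the edgeR call (orange higher, blue lower, grey not called). Calls fall on both sides of 0 in every list but the MAF and CNC genes, with 1 call, and the MS4A genes, with 3 calls, all higher.

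The cells carried the markers of CD4+ T cells, with Cd4 at 581.3 to 702.3 CPM and Lat at 413.1 to 483.0 CPM. Trac, which codes for the constant region of the T cell receptor alpha chain, had no listed value in any library, so the lack of a listed value is no sign that a gene was not expressed. Genes without a listed value enter the sums of the marker lists below as 0, so these sums cover the listed genes only. In the marker lists 71.4% of the tested T cell, 40% of the dendritic cell and 66.7% of the innate lymphoid markers were called, where 26.8% of all tested genes were. Of the 7 tested T cell markers Cd3e, Cd3g, Cd4 and Cd2 rose and Cd5 fell in edgeR (without knockout replicate 1 Cd3e had 0.054 as its adjusted p, while Cd3g had 0.0636 without wild type replicate 1 and 0.0905 without knockout replicate 1), and the summed level of the list was 2120 and 2116 CPM in the wild type and 2292 and 2204 CPM in the knockout. Since dendritic cells and innate lymphoid cells also express the Tmem176 pair, their markers were read beside it. The 9 dendritic cell markers summed to 114.0 and 110.2 CPM in the wild type and 97.2 and 89.5 CPM in the knockout. Nearly all of it was Cd74, the invariant chain gene, with 109.1 and 103.7 CPM in the wild type and 90.5 and 83.4 CPM in the knockout. Cd74 fell by 0.29 ± 0.05 in log2 terms (edgeR adjusted p = 0.000485), so the sum follows this gene and not the list. Of the 5 tested Cd74 fell and Xcr1, a chemokine receptor gene, rose (edgeR adjusted p = 0.00352, and 0.0561 without knockout replicate 2). Zbtb46 had 2.16 to 3.39 CPM. Itgax, the CD11c gene, had 1.11 and 1.42 CPM in wild type and 0.826 and 0.468 CPM in the knockout. Its log2 fold change was -0.95 ± 0.37 (adjusted p by edgeR = 0.0726), at levels far below the 27.0 to 62.3 CPM of the Tmem176 genes. H2-Aa, a class II gene, had a log2 fold change of 0.98 ± 0.57 at 0.151 to 0.933 CPM (adjusted p by edgeR = 0.222). The part of dendritic cells in the fall of the pair was not tested. Flt3, Clec9a and Siglech had at most 4 counts in any library, and Cd209a had no listed value. The 10 monocyte and macrophage markers summed to 4.92 to 5.79 CPM, most of it Cd68, with Lyz2, Csf1r and S100a8 without a listed value and Adgre1 at 10 counts or fewer. The 8 innate lymphoid and natural killer cell markers summed to 7.89 and 6.85 CPM in the wild type and 9.88 and 9.70 CPM in the knockout, led by Eomes and Il1rl1 in wild type and by Il1rl1 and Kit in the knockout. Kit had 1.51 and 1.32 CPM in wild type and 3.58 and 3.32 CPM in the knockout. Of the 3 tested Kit and Il1rl1 rose in edgeR, Il1rl1 with an adjusted p of 0.0702 to 0.148 without any 1 library, and Ncr1, Klra8 and Tyrobp had no listed value. The 6 B cell markers summed to 8.13 to 10.3 CPM, led by Cd79b and Ebf1, and the 5 CD8 and gamma-delta markers to 10.6 to 11.8 CPM, led by Cd8b1 and Cd8a. In edgeR neither list had a call, with 1 B cell marker higher and 1 lower at an unadjusted p under 0.05 and 0 in the other list, and DESeq2 called 0 in both.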

How the data were processed

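RNA of 4 mouse T cell cultures was sequenced on a HiSeq machine, per the labels' protocols. The submitters' processing notes name Bowtie and RSEM, without versions, and the build GRCm38 (mm10). The deposited tables hold, per the file headers, the expected count, FPKM and transcript length of each gene. An expected count is the authors' RSEM estimate, which divides reads that match several transcripts and need not be whole. The deposited FPKM scales it by transcript length and library size, but the deposited length and the total expected count do not return it exactly. Strand setting and annotation release were not given in the sources used here. A gene with no row in a table was taken as 0 there. No 2 libraries were duplicates (chi-square per degree of freedom at least 2.15).

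Expected counts were rounded and tested with edgeR 4.0.16 in R 4.3.3 (quasi-likelihood, two-sided, genotype as factor, TMM, filterByExpr with minimum count 10 and minimum total 15, Benjamini-Hochberg over 12677 genes). The procedure was also run on counts simulated with the dispersions estimated from these libraries. That run does not bear on the spread between mice. SE is the absolute log2 fold change divided by the square root of F. Alternatives used DESeq2 1.42.0, limma 3.58.1 on log2(FPKM + 0.1) or log2(FPKM + 1), other normalizations and filters, a replicate block and 3 libraries.

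The 5 genes and all lists were chosen with earlier results of these data known. Named genes were the 5, up to 6 called genes per list, by smallest adjusted p, genes too low to test, the closest profiles, the neighbours and abundant markers. Other genes, such as Il17a, Il17f, Il22, Il21, Nr1d1, Nr1d2, Arntl, Cyp1a1, Ahrr, Maff, Mafg, Mafk, Il10, Il4, H2-Aa and Itgax, were named after their values were seen, and some genes covered by the rule are not reported here. Sequences and coordinates are those of RefSeq on GRCm38.p6, in which 17440 gene identifiers matched, and exon overlaps and 31-mers are those of GENCODE M21.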

Additional observations from a re-analysis of the deposited data

How the results depend on the processing

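Over 13 alternatives Tmem176a kept its direction and its call in all, with log2 fold changes from -0.94 to -0.89 and a largest adjusted p of 0.0213, and so did Tmem176b, from -1.02 to -0.94. Ahr (0.02 to 0.10) and Maf (-0.08 to -0.06) kept their direction and were called in none. Rora lost its call in 1 alternative, limma on log2(FPKM + 0.1) over all listed genes, where its log2 difference was 0.46 (adjusted p = 0.0606). The other 12 gave 0.41 to 0.54. In that alternative 259 genes were called, 143 higher and 116 lower, and the lists had 2 calls for the Th17 genes, 3 for the clock genes and 0 for the AHR partners, AHR targets, MAF and CNC genes, genes tied to c-Maf and MS4A genes. Across all genes 1569 were called with DESeq2 (839 higher, 730 lower), with 1 MS4A gene, and 1928 with no filter on low counts (1051 higher, 877 lower), with 7 Th17 genes. With log2(FPKM + 0.1) over the tested genes 1151 were called higher.

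When 1 library was left out, the lone library of its group was assumed to vary like the others. The count of called genes was then 1441 to 2355, of higher genes 812 to 1243 and of lower genes 629 to 1112, the lowest each time without knockout replicate 2. The lists had 6 to 9 calls for the Th17 genes, 1 to 2 for the AHR partners, 1 to 2 for the AHR targets, 1 to 2 for the MAF and CNC genes and 0 to 2 for the MS4A genes. Where calls were lost, the cause was not tested beyond the smaller number of libraries.

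The replicate numbers are not said to pair the samples, and same-numbered libraries deviated together only weakly over 9893 genes (correlation 0.0849). With the replicate block 3952 genes were called, 1977 higher and 1975 lower. The MAF and CNC list had 3 calls, and Rora, Tmem176a and Tmem176b kept their calls while Ahr and Maf had adjusted p of 0.273 and 0.123, with a log2 fold change of 0.47 for Rora, -0.92 for Tmem176a and -0.98 for Tmem176b. With 2 libraries a group, the interval of Ahr still holds log2 changes of -0.03 to 0.15.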
